A study of Mus musculus with 6 samples.

Results

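Axon guidance genes were examined in mouse embryonic fibroblasts under reprogramming. They comprise semaphorins with their plexin and neuropilin receptors, netrins with Unc5 receptors, Slits with Robo receptors, and ephrins with Eph receptors. Members were taken by gene symbol from probe sets that name exactly 1 gene: symbols starting with Sema, Plxn, Unc5, Robo, Slit, Epha, Ephb, Efna or Efnb, and Nrp1, Nrp2, Ntn1 and Ntn4. The rule gave 74 of the 18193 genes on the array. For each gene the probe set with the highest mean log2(intensity + 16) was used. Of the 74 genes, 65 belong to the guidance families. The other 9 share only the first letters of a symbol (Slitrk1 to Slitrk6, Unc50, Unc5cl and the antisense transcript Plxna4os1) and are given apart.

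Guidance proteins are secreted or membrane-bound cues that steer migrating cells and growing axons by acting on the cytoskeleton of the cell that carries the receptor. Class 3 semaphorins are secreted and most are bound by a neuropilin and a plexin together, while semaphorins of the other vertebrate classes bind plexins directly. Netrin-1 acts through DCC, neogenin and the Unc5 receptors, and Slits repel cells through Robo receptors. Ephrins and Eph receptor tyrosine kinases both sit in membranes and signal at cell contacts, in fibroblasts as well as in neurons.

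The fibroblasts were of the B6CBAF1/J strain and all of them received SOX2 and KLF4 in medium for embryonic stem cells that held serum and leukemia inhibitory factor. They differed in the OCT4 given with these factors, wild-type in the combination O(WT)SK and a version called 5R in O(5R)SK, and the labels do not say what 5R stands for. RNA was taken on days 3, 5 and 7, with 1 Affymetrix array for each combination and day, 6 arrays in all. Cells given no factors were not analysed here. Nothing says that the samples came from separate cultures, so the p-values reflect only how these arrays vary, and that variation may be technical. No condition has a replicate. For day and combination differences, the spread behind a p-value is how far the courses of both combinations are from parallel. A gene whose courses run in parallel thus gets a small SE and is called more readily.

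Values are linear intensities that the authors had scaled to a 2% trimmed mean of 500 on every array. Log2 values of array pairs correlated with r between 0.974 and 0.982 across probe sets, and probe sets are no independent replicates. The highest intensity was 34285 on the O(5R)SK array of day 7, against 40353 to 47606 on the others. The median intensity of that array was the highest, 68.0 against 59.0 to 61.4 on the others. The fibroblast identity in the labels was checked with 16 fibroblast markers. All 16 were above the filter on low values (an intensity of about 33.5), and their summed intensity lay between 94833 on the O(5R)SK day 7 array and 121289. In culture extracts, fewer cells of a type and less RNA per cell cannot be told apart.

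Of the 74 members, 58 were above the filter and were tested among 12622 genes. They were 55 of the 65 guidance family members and 3 of the genes that share only a symbol's start. Since the filter uses the mean of the 6 arrays, high values on a few arrays can carry a dim gene past it. The 10 guidance family members below it were Epha6, Epha8, Epha10, Ephb1, Efna1, Robo2, Slit1, Sema3g, Sema4a and Unc5a. Their intensities ran from 1.39 to 51.7 and they are not described further.

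The factors delivered to these cells bind short DNA motifs, so the promoters of the members were searched for them. The sequences are the 250 bases before the annotated start, from RefSeq on build GRCm38.p6, matched by symbol, and the array's own build is not named. Of the 74 members 63 matched, with 80 promoters in all, among them 6 of the 9 members that passed the test between day 7 and day 3 (Efna3, Epha5, Plxna2, Robo4, Sema3a and Sema3c). Matches to 3 motifs were counted on both strands: the octamer ATGCAAAT bound by OCT4, the SOX core CATTGT and the KLF box GGGNGTGG. The octamer stood in 0 of the 80 member promoters, beside 1.60% of all 32851. The SOX core stood in 7 member promoters (8.75%, beside 10.7% of all), and the KLF box in 25 (31.3%, beside 15.9% of all). Member promoters are richer in G and C, with a median of 64% against 52.4%.

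The promoters of Robo4, Sema3c and Sema3a are printed because these genes passed the test between day 7 and day 3, the first and second upward and the third downward. Capitals mark the only motif match among them, a SOX core before Sema3a. Their places are chr9:37401722-37401971 for Robo4, chr5:17574566-17574815 for Sema3c and chr5:13396534-13396783 for Sema3a, each on the plus strand.
Robo4: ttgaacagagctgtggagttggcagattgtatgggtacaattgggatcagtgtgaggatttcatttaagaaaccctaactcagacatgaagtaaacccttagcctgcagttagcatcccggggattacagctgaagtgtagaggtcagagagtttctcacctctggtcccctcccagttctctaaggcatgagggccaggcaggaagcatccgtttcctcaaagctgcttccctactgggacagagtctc
Sema3c: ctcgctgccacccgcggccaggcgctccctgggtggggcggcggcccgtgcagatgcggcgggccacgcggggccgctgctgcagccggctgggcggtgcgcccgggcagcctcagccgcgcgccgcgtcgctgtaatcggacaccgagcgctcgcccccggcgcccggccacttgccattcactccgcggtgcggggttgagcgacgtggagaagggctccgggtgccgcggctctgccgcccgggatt
Sema3a: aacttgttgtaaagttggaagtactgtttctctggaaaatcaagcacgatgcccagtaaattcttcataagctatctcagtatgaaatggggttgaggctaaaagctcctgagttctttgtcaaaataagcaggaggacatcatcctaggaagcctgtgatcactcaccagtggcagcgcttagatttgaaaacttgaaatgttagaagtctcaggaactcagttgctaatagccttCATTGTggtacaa
The G and C content of these stretches was 49.6%, 78.4% and 40.8% in this order. Sema3c and Sema3a are both secreted semaphorins of chromosome 5. A motif match is a description of letters, and no binding was measured here.

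The first comparison sets day 7 against day 3 over both combinations and describes the course they share. In this comparison 8 members rose and 1 fell at an adjusted p of 0.05 in limma, fitted over all genes. The netrin gene Ntn1 rose most, 4.36-fold, followed by the Slit receptor family gene Robo4, 3.53-fold, and the netrin receptor gene Unc5d, 2.25-fold. The other genes that rose were Efnb3, Sema3c, Plxna2, Efna3 and Epha5, and Sema3a fell 1.43-fold. The 9 called members are 15.5% of the 58 tested, beside 10.2% of all genes tested (6.52% higher and 3.68% lower). The 9 include Efnb3, which was above the filter only through its day 7 values, so its call is no support for a rise. The median log2 difference of the tested members was 0.23 against 0.03 for all genes, and 39 of the 58 were positive (67.2%, beside 53.4% of all genes). No test sets the members against other genes. Leaving out any day 3 or day 7 array left 0 called members and 0 called genes in limma, with 18 to 21 members still at an unadjusted p under 0.05. Setting all arrays to one common median moved the median gene from 0.03 to -0.07, and 7 members were then called higher and 2 lower, as after quantile normalization.

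Values of a gene are intensities in the order of days 3, 5 and 7, O(WT)SK first, and for other probe sets of a gene the log2 difference is given. Ntn1 (probe set 1454974_at) encodes netrin-1, a secreted cue related to laminins. It read 288, 673 and 1286 over the successive days with O(WT)SK, against 268, 524 and 1243 with O(5R)SK. Both courses climbed at each step, and each day 7 value was above every earlier value. The log2 difference was 2.12 (SE 0.120, adjusted p = 0.00765 in limma), with 2.10 in O(WT)SK and 2.15 in O(5R)SK. Its second, dim probe set read 0.72, with 23.1, 14.9 and 101 for O(WT)SK against 39.5, 54.5 and 34.1 for O(5R)SK. That probe set was thus higher on day 7 than on day 3 only with O(WT)SK. The mean of both probe sets gave 1.42. Ntn4, a netrin of basement membranes, read 3356, 3362 and 4399 with O(WT)SK, against 3704, 3557 and 4455 with O(5R)SK (log2 0.33, SE 0.097, adjusted p = 0.108 in limma). In both combinations its day 7 value was the highest, but the difference did not pass.

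The receptors of netrin-1 took different courses. Unc5d (1440484_at) read 43.9, 65.4 and 93.2 with O(WT)SK, against 110, 193 and 333 with O(5R)SK. It climbed at each step in both, and every O(5R)SK value was above every O(WT)SK value. Its day 7 difference was 1.17 (SE 0.169, adjusted p = 0.0272 in limma). Unc5b, a receptor known from blood vessels, read 1517, 1271 and 993 with O(WT)SK, against 1420, 1545 and 1257 with O(5R)SK (log2 -0.39, SE 0.143, adjusted p = 0.157 in limma). Unc5c lay between 127 and 177 on all arrays. The other netrin-1 receptors are no members: Dcc lay between 42.8 and 56.3 and Neo1, which encodes neogenin, between 784 and 1026, and neither passed (adjusted p = 0.445 and 0.372 in limma).

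**Figure D1:**
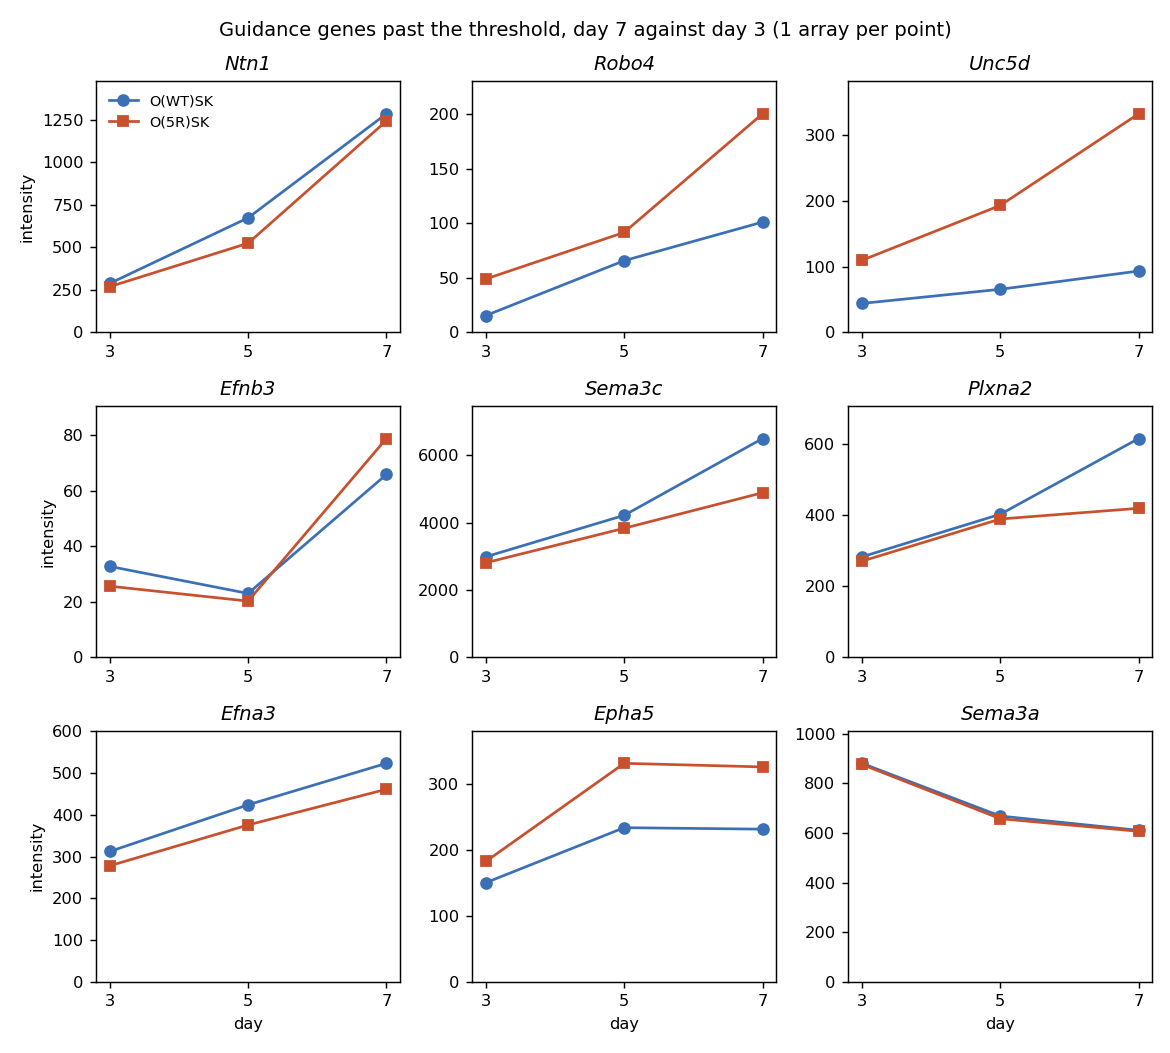
Intensity (linear, from 0) by day of the 9 members past the threshold between day 7 and day 3, with circles for O(WT)SK and squares for O(5R)SK and 1 array per point. Ntn1 and Sema3a ran together in both combinations, while Unc5d was higher with O(5R)SK on every day. Courses that run in parallel give a small SE in the fit, which favours a call.

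Robo4 (1426206_at), a receptor of the Slit receptor family known from endothelial cells, read 15.3, 65.6 and 101 with O(WT)SK, against 48.9, 91.5 and 200 with O(5R)SK. It climbed at each step in both combinations (log2 1.82, SE 0.184, adjusted p = 0.0147 in limma). The O(WT)SK day 3 value lies below the filter intensity, and with a pseudocount of 64 in place of 16 the difference was 1.14. Of 13 endothelial markers other than Robo4, 7 were tested and 0 were called in limma. Their summed intensity was 2160 and 2321 on day 3 and 1789 and 1884 on day 7. Cdh5, Cldn5, Erg, Pecam1, Tie1 and Vwf lay below the filter, while Egfl7, Emcn, Esam, Flt1, Kdr, Sox17 and Tek lay above it. Flt1 read 1312, 1095 and 957 against 1409, 921 and 769 (log2 -0.65, adjusted p = 0.0564 in limma), and Tek 418, 431 and 467 against 434, 559 and 598 (log2 0.30, adjusted p = 0.187 in limma). The part of endothelial cells in the Robo4 values was not tested. Robo1, the widely expressed Slit receptor, read 471, 463 and 401 with O(WT)SK, against 520, 576 and 897 with O(5R)SK. Its ligand gene Slit2 read 4928, 5030 and 5886 against 5323, 5937 and 7004 (log2 0.33, SE 0.100, adjusted p = 0.114 in limma), stepwise upward in both without passing. Slit3 lay between 293 and 470, and Robo3 between 38.0 and 73.2.

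Among the secreted semaphorins, Sema3c and Sema3a passed in opposite directions. Sema3c (1429348_at), a cue of neural crest and vessel development, read 2984, 4216 and 6500 with O(WT)SK, against 2806, 3831 and 4888 with O(5R)SK. It climbed at each step in both (log2 0.96, SE 0.123, adjusted p = 0.0225 in limma), and its second probe set read 0.44. With its probe sets averaged the call was lost (adjusted p = 0.0895 in limma). Sema3a (1420416_at), the classical repellent of growth cones, read 880, 668 and 610 with O(WT)SK, against 876, 657 and 606 with O(5R)SK. The fall lay mostly between days 3 and 5, and the combinations differed by -0.01, -0.02 and -0.01 on the log2 scale on the 3 days (day 7 difference -0.52, SE 0.093, adjusted p = 0.0414 in limma). Its other probe sets read -0.90 and -0.58. The call was lost whichever array was left out, with adjusted p from 0.0858 to 0.188 in limma. Sema3b read 153, 217 and 259 against 187, 194 and 300 (log2 0.67, SE 0.141, adjusted p = 0.0555 in limma), just short of the threshold.

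The receptors of class 3 semaphorins did not move together. The plexin gene Plxna2 read 282, 402 and 616 with O(WT)SK, against 270, 389 and 419 with O(5R)SK (log2 0.84, SE 0.160, adjusted p = 0.0455 in limma). Each of its other probe sets was also higher on day 7, by 0.92, 0.42 and 1.52, but the call was lost with a common median (adjusted p = 0.0710 in limma). The neuropilin gene Nrp1, a co-receptor shared with vascular endothelial growth factor, read 4702, 4717 and 3457 with O(WT)SK, against 4770, 3852 and 3325 with O(5R)SK. Its log2 difference of -0.48 (SE 0.120) did not pass (adjusted p = 0.0775 in limma), though its other probe sets read -0.41, -0.40 and -0.55. Nrp2 lay between 976 and 1242. Plxna3 read 324, 223 and 242 against 273, 204 and 197 (log2 -0.42, SE 0.101, adjusted p = 0.0717 in limma).

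The plexins as a group had 1 of 9 members called. Their log2 differences ran from -0.49 to 0.84, and 6 were positive. Plxnc1, a receptor of the membrane-anchored semaphorin 7A, read 80.4, 55.0 and 46.7 with O(WT)SK, against 64.8, 53.6 and 46.8 with O(5R)SK. It stepped down in both combinations (log2 -0.49, SE 0.114, adjusted p = 0.0662 in limma), and it passed after quantile normalization or with a common median, while the mean of its probe sets read only -0.08. Plxnb2, the plexin of epithelial and neural precursor cells, read 2417, 2456 and 3206 against 2294, 2730 and 3023 (log2 0.40, SE 0.112, adjusted p = 0.0962 in limma). Plxna4 and Plxnb3 were dim and uneven, and Plxna1 and Plxnd1 lay between 1159 and 1482 and between 133 and 170.

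None of the 11 tested transmembrane semaphorins passed in limma, where 2 of them (Sema4c and Sema6d) had an unadjusted p under 0.05, and the GPI-anchored Sema7a, at 311 to 489, did not either. Of the 11, 9 had positive differences, and 7 did with a common median or after quantile normalization. The highest was Sema6d, a ligand of plexin-A receptors known from heart development, which read 714, 779 and 1525 with O(WT)SK, against 1248, 1323 and 1634 with O(5R)SK (log2 0.73, SE 0.204, adjusted p = 0.0958 in limma). Its O(WT)SK day 7 value came near the O(5R)SK value of the same day, while the earlier pairs lay apart. The lowest was Sema5b, which read 42.5, 25.6 and 39.7 against 86.5, 4.29 and 39.7. Both were lowest on day 5, and its difference of -0.48 (SE 0.441, adjusted p = 0.516 in limma) was 0.39 with the mean of its probe sets.

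Among the ephrins, 1 gene of each type rose. Efna3, a GPI-anchored ligand of EphA receptors, read 312, 424 and 524 with O(WT)SK, against 278, 376 and 461 with O(5R)SK. Both courses climbed at each step, and O(5R)SK minus O(WT)SK was -0.16, -0.17 and -0.18 on the 3 days (day 7 minus day 3 was 0.71, SE 0.093, adjusted p = 0.0229 in limma), and its second probe set read 0.73. With both probe sets averaged the difference was 0.72 and did not pass (adjusted p = 0.0670 in limma). Efna4 (278, 358 and 391 against 286, 343 and 372) and Efna5 (908, 1058 and 1260 against 951, 1067 and 1220) also stepped up in both combinations. Their differences of 0.42 (SE 0.097, adjusted p = 0.0678 in limma) and 0.41 (SE 0.097, adjusted p = 0.0691 in limma) did not pass. Efnb3, a transmembrane ephrin of the nervous system, read 32.7, 22.9 and 65.8 against 25.5, 20.2 and 78.7. It was lowest on day 5 and highest on day 7 in both, so it had no steady climb (log2 0.97, SE 0.141, adjusted p = 0.0275 in limma), and with a pseudocount of 64 the difference was 0.55. All 4 of its day 3 and day 5 values lay below the filter intensity, so it was tested only through its day 7 values. Having passed the filter by being high on day 7, it had to differ, and its call is no support for a rise of the members. Efnb2, the arterial ephrin, lay between 2392 and 3338 and Efnb1 between 638 and 863, and neither passed.

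Epha5 was the Eph receptor gene that rose. It read 150, 233 and 231 with O(WT)SK, against 182, 331 and 325 with O(5R)SK (log2 0.68, SE 0.110, adjusted p = 0.0337 in limma). With the probe set used, the whole rise lay between days 3 and 5. The next brightest one climbed at each step in both, at 63.1, 140 and 211 against 121, 140 and 191. The log2 differences of the other Epha5 probe sets were 1.06, 0.24 and -0.32, and with the mean of all of them the difference was 0.41 and did not pass. Epha3 read 722, 820 and 1271 against 537, 627 and 670 (log2 0.56, SE 0.167, adjusted p = 0.108 in limma). It passed with the mean of its probe sets (adjusted p = 0.0253 in limma). Of the 3 tested EphB genes 0 passed in limma, and 0 had an unadjusted p under 0.05.

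Over all 58 tested members, 41 had the same sign of change in both combinations (70.7%, beside 69.7% of all genes). Of these, 29 were higher on day 7 in both (50%, beside 37.9%) and 12 were lower in both (20.7%, beside 31.8%). A climb at each step in both combinations was seen for 15 members (25.9%, beside 14.9%): Efna3, Efna4, Efna5, Epha3, Ephb6, Ntn1, Plxna2, Plxnb2, Robo4, Sema3b, Sema3c, Sema4c, Sema6d, Slit2 and Unc5d. A fall at each step in both was seen for Efnb1, Plxnc1 and Sema3a (5.17%, beside 12.9%). On the log2(intensity + 16) scale Ntn1 and Robo4 were at least 2-fold higher in each combination (3.45% of tested members, beside 2.01%), and none was 2-fold lower in both (beside 0.784%). On plain intensities Unc5d and Efnb3 were also at least 2-fold higher in both.

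A dip on day 5 was noticed after the values were seen and was not tested. The day 5 value lay below those of days 3 and 7 in both combinations for 8 of the 58 tested members (13.8%, beside 7.51% of all genes tested): Efna2, Efnb3, Nrp2, Sema3f, Sema4d, Sema5a, Sema5b and Sema6a. Sema3f, a secreted semaphorin that binds neuropilin-2, read 145, 50.5 and 134 over the successive days with O(WT)SK, against 202, 61.8 and 198 with O(5R)SK. Its day 5 values lay below all its other values, and day 3 and day 7 values were close within each combination. Efna2, an ephrin-A, read 146, 53.9 and 134 against 144, 94.0 and 155. Sema6a, a transmembrane semaphorin that binds A plexins, read 115, 74.0 and 118 against 143, 104 and 141. The opposite course, with day 5 highest in both combinations, was seen for Epha2, Epha5 and Sema6c (5.17%, beside 7.33%). Epha2, a receptor of ephrin-A1, read 1012, 1062 and 971 against 970, 1106 and 996. These courses are those of 1 probe set per gene. Of the other probe sets of the 8 genes with a dip, only a dim one of Sema6a dipped in both combinations. A bright second probe set of Nrp2 climbed at each step in both (977, 1036 and 1214 against 928, 1020 and 1108). A dim one of Sema3f read 33.6, 32.7 and 32.8 against 36.7, 42.7 and 22.9. The next brightest probe set of Epha5 climbed at each step in both.

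**Figure D2:**
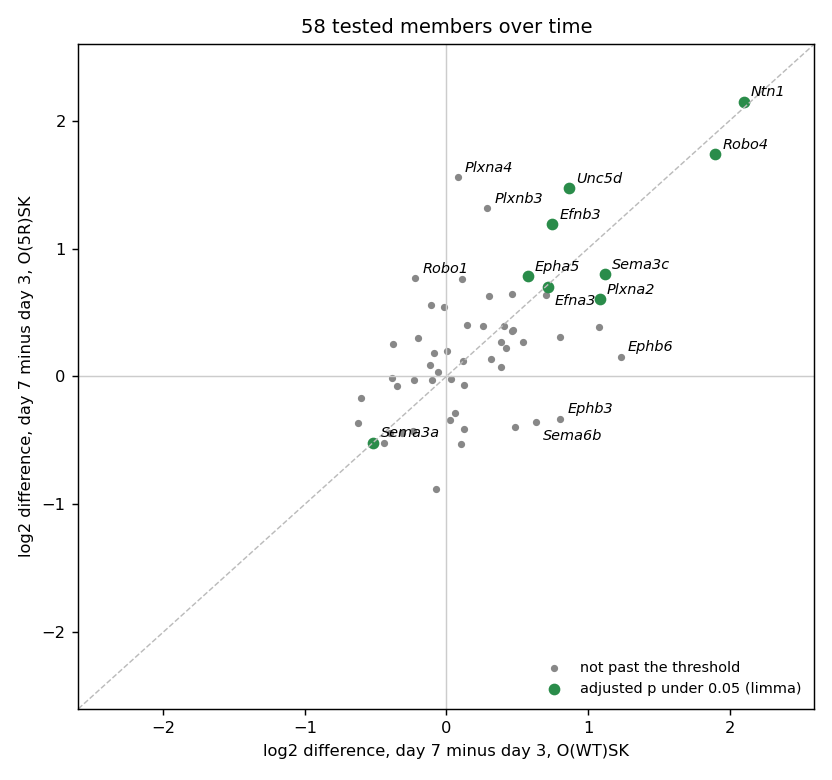
Day 7 minus day 3 (log2 of intensity + 16) with O(WT)SK on the horizontal and with O(5R)SK on the vertical axis, 1 point for each of the 58 tested members, green for the 9 past the threshold and a dashed line where both are equal. Ntn1 and Robo4 stand far up near the line, and most members lie within 1 of 0 on both axes.

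Genes that work with the members were taken from 2 further lists. Of 25 other ligands and co-receptors, 21 were tested, 1 rose and 1 fell, with a median of 0.10. Ntng1, a membrane-anchored relative of the netrins, read 48.1, 59.1 and 109 against 35.1, 87.5 and 167 (log2 1.40, SE 0.245, adjusted p = 0.0391 in limma). Itga1, an integrin subunit for collagen, read 194, 147 and 90.8 against 192, 136 and 90.1 (log2 -0.97, SE 0.096, adjusted p = 0.0143 in limma). Of 59 cytoplasmic effectors, 52 were tested, with a median of -0.00. The actin-binding Ablim1 (log2 0.96, SE 0.099, adjusted p = 0.0151 in limma) and Arhgef12, which couples to B plexins (log2 0.59, SE 0.104, adjusted p = 0.0398 in limma), rose. Enah, which extends actin filaments, and the kinase Fyn fell (log2 -0.62 and -0.59, SE 0.124 and 0.116, adjusted p = 0.0499 and 0.0493 in limma). Each of these lists held as many genes that rose as genes that fell, and 0 genes of either differed between the combinations in limma.

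Markers of other cell types also moved between days 3 and 7, and their part in the members' values was not tested. Of 17 tested macrophage and leukocyte markers 9 fell, and the list's summed intensity went from 11565 and 12032 on day 3 to 5267 and 5669 on day 7. Of 12 smooth muscle and contractile genes 8 fell, with sums of 148641 and 150549 on day 3 and 91799 and 121202 on day 7. Neuron markers had sums of 20176 and 21221 on day 3 and 23463 and 24351 on day 7, and 1 of 10 tested rose, the neurofilament gene Nefl (log2 1.11, adjusted p = 0.0126 in limma). Glial and Schwann cell markers had 1 of 7 tested genes that rose, the fatty acid binding protein gene Fabp7 (log2 2.06, adjusted p = 0.00765 in limma). Pluripotency genes had 5 that rose and 2 that fell of 10 tested. That list includes Pou5f1 and Sox2, genes of factors delivered to the cells, and delivered and own RNA were not told apart. Of the 16 fibroblast markers 4 fell and 0 rose, and of 9 tested epithelial markers 2 rose and 1 fell.

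The second comparison asks how the guidance genes differed between the OCT4 versions, with arrays matched by day. Among members with 1 sign on all 3 days, the largest differences were those of single genes: Unc5d was 2.58-fold higher with O(5R)SK, Robo4 1.71-fold, Sema4d 1.64-fold, Sema3e 1.63-fold and Epha7 1.56-fold, while Sema6c was 2.71-fold lower and Epha3 1.48-fold lower. None of these passed, and Sema6c was above the filter mainly through its O(WT)SK arrays, which favours a lower value with O(5R)SK. In limma 0 of the 58 members and 0 of the 12622 genes (0%) had an adjusted p under 0.05. The members' adjusted p-values lay between 0.232 and 0.993. At an unadjusted p under 0.05 there were 12 members higher (20.7%, beside 5.44% of all genes) and 6 lower (10.3%, beside 3.91%). Among the 6 lower are Sema6c and Slitrk6, which high values with O(WT)SK carried past the filter. The median difference of the tested members was 0.01, beside -0.01 for all genes. With a trended and robust prior 82 genes passed, 4 of them members: Sema3e (adjusted p = 0.00486 in limma), Unc5d (adjusted p = 0.00754), Epha7 (adjusted p = 0.0480) and Epha4 (adjusted p = 0.0494). Marker sums also differed between the combinations: the fibroblast list lay between 113591 and 121289 with O(WT)SK, against 94833 to 109800 with O(5R)SK, and the pluripotency list between 4157 and 4996, against 6352 to 8875. The pluripotency list includes Pou5f1 and Sox2, genes of delivered factors, and delivered and own RNA were not told apart. In limma 0 of its genes passed between the combinations, with a median difference of 0.14. The part of these marker lists in the members' differences was not tested.

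Unc5d, whose values are given above, differed by 1.07, 1.36 and 1.67 on the log2 scale on days 3, 5 and 7 (mean 1.37, SD 0.30 over 3 days, SE 0.138, adjusted p = 0.232 in limma). On the log2(intensity + 16) scale it was the only tested member at least 2-fold higher on every day (1.72% of tested members, beside 0.0792% of all genes), and its lowest O(5R)SK value of 110 was above its highest O(WT)SK value of 93.2. All 3 tested Unc5 and all 3 tested Robo members had a positive mean difference, also with a common median and after quantile normalization. Of all genes tested, 46.8% had a positive difference. Robo4 differed by 0.78 (SD 0.34, SE 0.150, adjusted p = 0.349 in limma), and by 0.48 with a pseudocount of 64. Unlike Unc5d, its 2 sets of arrays overlapped, since the O(5R)SK day 3 value of 48.9 lay below the later O(WT)SK values. For these genes the endothelial markers' sums were 1789 to 2160 with O(WT)SK, against 1884 to 2321 with O(5R)SK, and those of neuron markers reached 24473 and 25244.

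Sema3e (1419717_at), a secreted semaphorin that binds plexin-D1 without a neuropilin, read 2033, 2075 and 1909 with O(WT)SK, against 3239, 2964 and 3673 with O(5R)SK. The sets did not overlap and neither changed steadily with day (combination difference 0.71, SD 0.22 over 3 days, SE 0.112, adjusted p = 0.296 in limma). Its other probe sets read 0.32, 0.42 and 0.34, and the mean of all of them gave 0.44. Sema4d, a transmembrane semaphorin of lymphocytes that binds plexin-B1, read 67.0, 39.4 and 47.6 against 96.4, 87.6 and 95.1 (0.71, SD 0.25, SE 0.121, adjusted p = 0.308 in limma). Its other, dimmer probe sets read -0.40 and 0.36, and the mean of all of them gave 0.23. Sema6d was higher with O(5R)SK by 0.79 and 0.75 on days 3 and 5 and by 0.10 on day 7.

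Sema6c, a transmembrane semaphorin, went the other way, at 70.5, 115 and 105 with O(WT)SK, against 20.1, 53.5 and 11.5 with O(5R)SK. The sets did not overlap, but the O(5R)SK values straddle the filter intensity (-1.44, SD 0.63, SE 0.250, adjusted p = 0.324 in limma). The O(WT)SK values all lay above that intensity, and the O(5R)SK values of days 3 and 7 below it. Sema6c passed the filter mainly through O(WT)SK, which favours a negative difference. This difference is thus no support for a lower level with O(5R)SK. With the mean of its probe sets the difference was -0.65, and its other probe sets read -0.60 and 0.10. Sema5a was lower by less, at 116, 106 and 148 against 106, 72.3 and 118 (-0.29, SD 0.18, SE 0.101, adjusted p = 0.499 in limma). The 9 plexins all had negative mean differences, from -0.39 to -0.00, also with a common median and after quantile normalization. Of all genes tested, 46.8% had a positive difference. Those of Plxnb2, Plxna1 and Plxnd1 were near 0, at -0.00, -0.05 and -0.06. Only Plxnb1 had an unadjusted p under 0.05 in limma. Of other plexin probe sets above the filter, only the second of Plxna1 was positive, at 0.42. The largest of the 9 differences was that of Plxnb1, a receptor of semaphorin 4D, at 211, 197 and 297 against 129, 186 and 211 (-0.39, SD 0.29, SE 0.134, adjusted p = 0.496 in limma). The mean of its probe sets gave -0.20. Both neuropilins had a negative mean difference too, of -0.11 and -0.10.

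**Figure D3:**
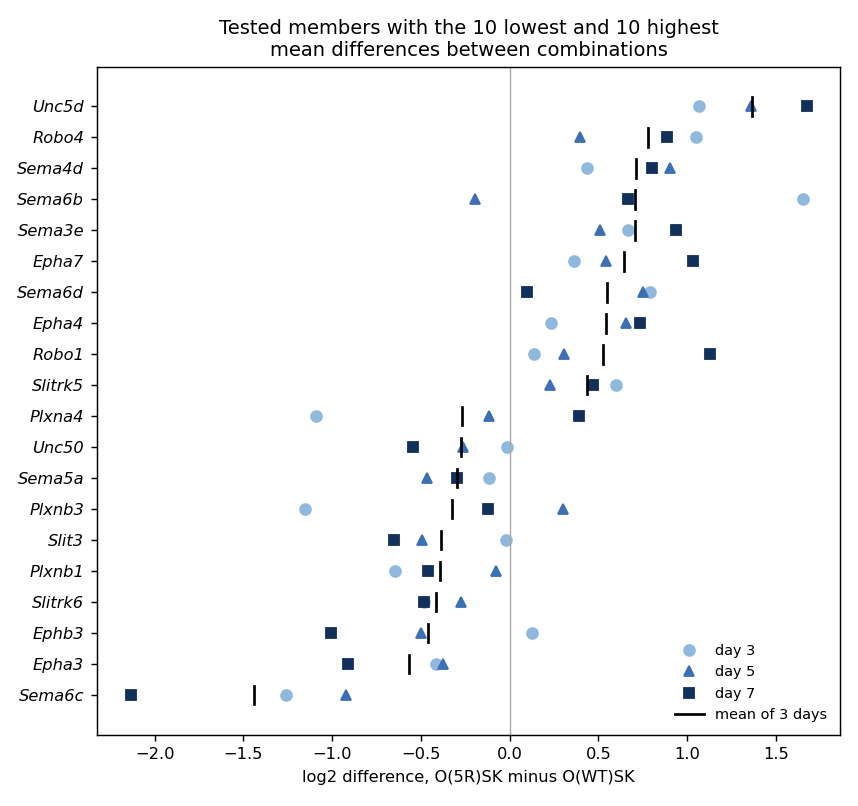
O(5R)SK minus O(WT)SK (log2 of intensity + 16) for the 10 lowest and 10 highest tested members by mean difference, with a symbol for each day and a tick at the mean. The 3 symbols of Unc5d lie beyond 1 and those of Sema6c between -2.14 and -0.92, while Sema6b and Robo1 spread widely over the days.

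The EphA receptors split. Epha7 read 1094, 1027 and 1012 with O(WT)SK, against 1414, 1502 and 2085 with O(5R)SK, with no overlap (0.65, SD 0.35, SE 0.152, adjusted p = 0.383 in limma). Its other probe sets read 0.19, 0.20 and 0.57, and the mean of all gave 0.40. Epha4, a receptor for ephrins of both types, read 837, 761 and 727 against 986, 1209 and 1220, also with no overlap (0.54, SE 0.128, adjusted p = 0.383 in limma), but its other probe sets read only 0.09, 0.22, 0.08 and 0.20. Epha5 was 0.40 higher (SE 0.090, adjusted p = 0.368 in limma), with overlap. Epha3 lay lower with O(5R)SK and did not overlap either (-0.57, SD 0.30, SE 0.136, adjusted p = 0.383 in limma), while its other probe sets read -0.21, -0.67 and 0.35 and the mean of all gave -0.28. Of the 6 tested EphA genes 5 had a positive mean difference, against 3 with a common median and 4 after quantile normalization. Of the ephrins, Efnb2 read 2802, 2687 and 2392 against 3338, 3190 and 3274, with no overlap (0.32, SE 0.088, adjusted p = 0.453 in limma), and the tested ephrin-A genes lay between -0.17 and 0.28. The Slit gene Slit3 read 437, 442 and 470 against 430, 310 and 293 (-0.39, SD 0.33, SE 0.146, adjusted p = 0.532 in limma).

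Over the 58 tested members, all 3 O(5R)SK arrays lay above all 3 O(WT)SK arrays for 10 (17.2%, beside 4.63% of all genes): Efnb2, Epha4, Epha7, Robo1, Sema3e, Sema4d, Sema7a, Slitrk5, Unc5c and Unc5d. They lay below for 5 (8.62%, beside 4.71%): Epha3, Sema6c, Slit3, Slitrk6 and Unc50. All 3 O(5R)SK values of Slitrk6 (24.5, 31.0 and 28.0) lay below the filter intensity and its O(WT)SK values above it. Slitrk6 was thus tested only through O(WT)SK, and Sema6c mainly so, which favours their place in this count. Neither is support for lower values with O(5R)SK. The difference kept its sign on all 3 days for 30 members (51.7%, beside 33.8% of all genes), 17 higher and 13 lower. Arrays of single days have no replicate, and at least 2-fold differences on the log2(intensity + 16) scale were few. On day 3 Robo4, Sema6b and Unc5d were 2-fold higher (5.17%, beside 0.689%) and Plxna4, Plxnb3 and Sema6c 2-fold lower (beside 0.634%). On day 5 Unc5d was higher (beside 0.998%) and Sema5b lower (beside 0.681%). On day 7 Epha7, Robo1 and Unc5d were higher (beside 1.73%) and Ephb3 and Sema6c lower (beside 0.388%). Several of these differences rest on values below the filter intensity. On day 3 these were Robo4 (15.3) and Sema6b (13.2) with O(WT)SK, and Plxna4 (18.0) and Sema6c (20.1) with O(5R)SK. Both Sema5b values of day 5 (25.6 and 4.29) and the O(5R)SK value of Sema6c on day 7 (11.5) also lay below it. On plain intensities the 2-fold lists would add Sema5b as higher on day 3, and Sema4d as higher and Sema6c as lower on day 5.

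The third comparison asks whether the course over days differed between the combinations, as a difference of slopes per 4 days, from day 3 to day 7. In limma 0 of the 58 members and 0 of all genes (0%) passed, with adjusted p-values of the members between 0.647 and 0.998. At an unadjusted p under 0.05 there were 5 members with a more positive slope with O(5R)SK (8.62%, beside 4.92% of all genes) and 4 with a more negative one (6.9%, beside 2.6%). Slope differences were positive for 26 members (44.8%, beside 48.6%). All 3 tested EphB receptor genes were among the 9 with a low unadjusted p.

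Ephb3, an epithelial and neural EphB receptor, read 387, 486 and 689 with O(WT)SK, against 424, 339 and 334 with O(5R)SK. The values went up at each step with O(WT)SK and down with O(5R)SK (slope difference -1.13, SE 0.212, adjusted p = 0.647 in limma). Ephb6, an Eph receptor without kinase activity, read 34.6, 48.9 and 103 against 47.5, 48.3 and 54.6 (-1.08, SE 0.265, adjusted p = 0.647 in limma). Ephb4, the venous receptor of ephrin-B2, went the opposite way, at 291, 274 and 220 against 242, 273 and 292 (0.63, adjusted p = 0.647 in limma). Robo1 diverged mainly on day 7, where the O(5R)SK value of 897 stood against 401 (slope difference 0.99, SE 0.261, adjusted p = 0.647 in limma). Epha7 also parted most on day 7 (0.67, SE 0.225, adjusted p = 0.647 in limma), and Sema3d read 374, 407 and 404 against 325, 456 and 564 (0.66, SE 0.185, adjusted p = 0.647 in limma). These genes differed most between the combinations on day 7. From day 3 to day 7, Ephb3 and Ephb6 changed more with O(WT)SK (log2 0.81 and 1.23) than with O(5R)SK (-0.33 and 0.15). The O(5R)SK array of day 7 had the lowest maximum but the highest median, and its part in these differences was not tested.

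Several dim members also had wide slope differences with large errors. Plxna4 read 56.3, 82.8 and 60.4 against 18.0, 75.3 and 84.1 (1.48, SE 0.630, adjusted p = 0.695 in limma), and Plxnb3 107, 70.3 and 134 against 39.3, 90.2 and 122 (1.03, SE 0.589, adjusted p = 0.724 in limma). Sema6b read 13.2, 69.4 and 29.3 against 76.2, 58.5 and 55.9 (-0.99, SE 0.998, adjusted p = 0.836 in limma). Each of these has 1 day 3 value far below that of the other combination. For Sema6c and Sema5b the slope differences were -0.87 (SE 0.968, adjusted p = 0.849 in limma) and -0.81 (SE 1.56, adjusted p = 0.912 in limma). The slopes of Plxnb3, Sema6b, Sema6c and Sema5b changed sign when 1 array was left out.

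**Figure D4:**
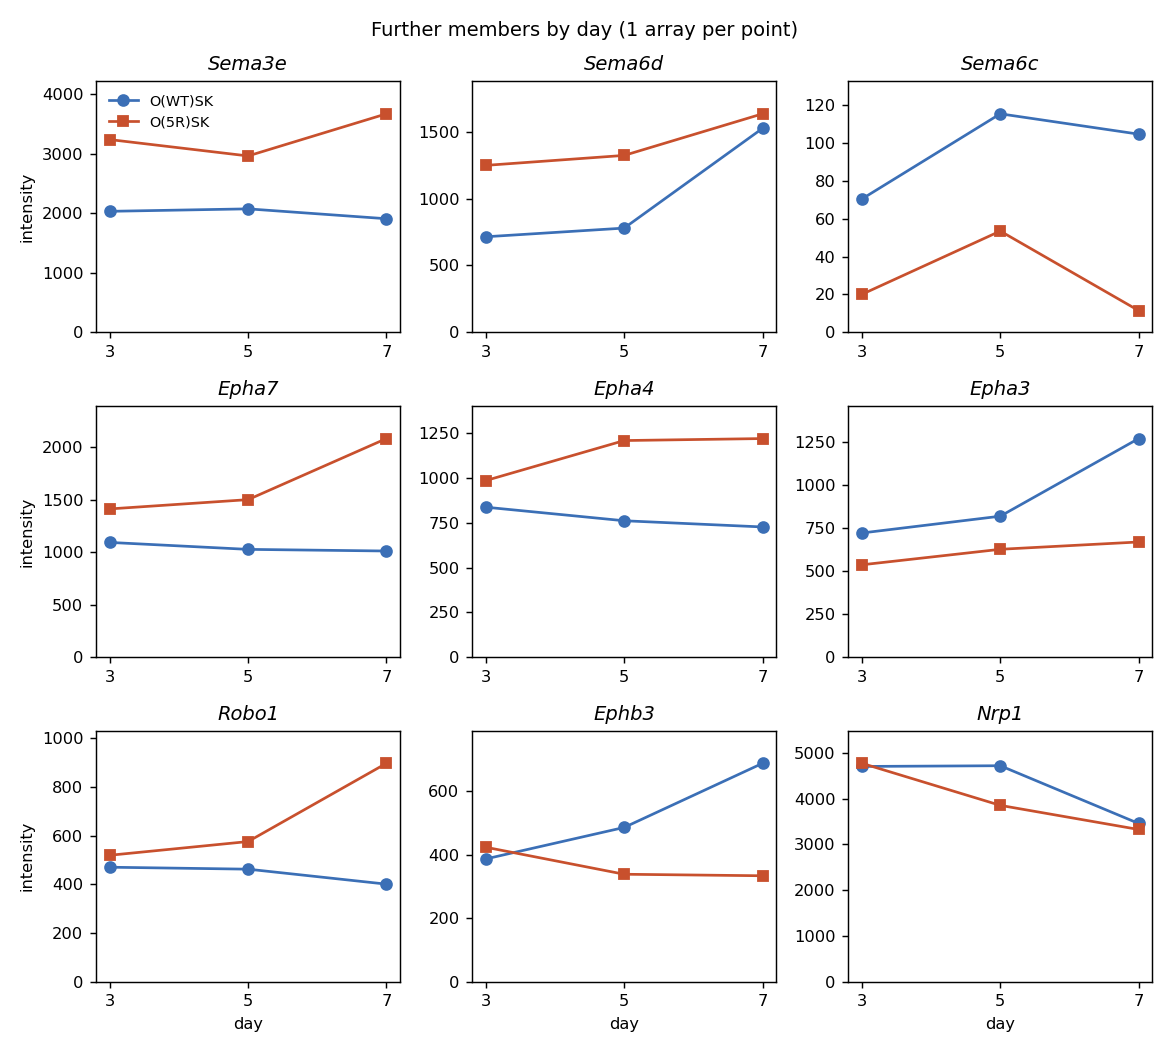
Intensity (linear, from 0) by day of 9 members that did not pass between day 7 and day 3, with circles for O(WT)SK and squares for O(5R)SK and 1 array per point. Sema3e, Epha7 and Epha4 lie higher and Sema6c and Epha3 lower with O(5R)SK on every day, and Ephb3 and Robo1 part on day 7.

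Where a member had other probe sets above the filter, these were compared with the one used. Of 54 such probe sets, 38 had the same sign of the day 7 difference and 44 the same sign of the combination difference. Of the 9 genes that share only the start of a symbol, Slitrk5, Slitrk6 and Unc50 were tested. Slitrk genes encode neuronal membrane proteins, and 0 of these genes passed in any comparison in limma, with 1, 2 and 1 at an unadjusted p under 0.05 for day, combination and slope. Unc50 read 4402, 4455 and 4789 with O(WT)SK, against 4362, 3704 and 3278 with O(5R)SK (combination difference -0.27, adjusted p = 0.599 in limma).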

How the data were processed

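Total RNA of 6 samples was measured on Affymetrix arrays with 45101 probe sets. The authors deposited linear intensities, made with affy per the submitters' processing notes. Affy's version, the summary method and background step are not given in the sources used. The 2% trimmed mean of the deposited intensities is 500 on every array. Columns of other samples left unused numbered 0.

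Symbols came from the platform's annotation: 34958 probe sets name 1 gene, 932 several and 9211 none, and 64 control probe sets were left out. The deposited intensities were converted to log2(intensity + 16), a scale on which the fold of a dim gene is understated. Genes whose mean exceeded the 40th percentile over probe sets (log2 5.63) were tested.

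Fits by lmFit and eBayes of limma 3.58.1 ran under R 4.3.3, with tables read by the package data.table (version 1.17.8). P-values were adjusted by Benjamini-Hochberg over 12622 genes, with a threshold of 0.05. Day and combination differences came from an additive fit of combination and day (3 levels, 2 residual and 2.6 prior degrees of freedom), slopes from combination by day as a number. An SD is over the 3 days' differences. The number of arrays limits the precision. Figures used Python 3.11.15, pandas 2.3.3 and matplotlib 3.10.9.

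Full statistics went to members past the threshold and, where under 5 passed in a direction, to the largest differences of one sign in both combinations or on all 3 days. Sema6d, Efna4, Efna5, Plxnb2, Slit2, Ntn4 and other members named beside these were picked with their values in view. The members, gene lists and rules were chosen with earlier results of these data known. Alternatives were the pseudocount (64, 4), the filter (none, 60th percentile), the scaling, the choice of probe set, the prior, no shrinkage, no day term and leaving out each array.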

Additional observations from a re-analysis of the deposited data

How the results depend on the processing

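No paired analysis was possible because the labels carry no replicate numbers. Day is a term of the fit for this matching, and without that term 0 members were called between the combinations.

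Of members called between day 7 and day 3, 9 in all, there were 0 without a filter on low values (25 at an unadjusted p under 0.05 in limma), 16 with the stricter filter, 19 with a trended and robust prior and 0 without shrinkage (14 unadjusted). Leaving out 1 array gave 0 to 9, with 0 for any day 3 or day 7 array. The 9 called without either day 5 array shared 8 with the full set, with Sema3b in place of Sema3a, the only member called lower, whose call was lost whichever array was left out. With a pseudocount of 64 there were 13, with 4 there were 8, and with quantile normalization or a common median 9 (7 higher, 2 lower). Averaging each gene's probe sets gave 8, of which 6 were shared with the 9. The shares of all genes called under these alternatives are not given here, so the counts do not set the members against other genes. Plxna2 was lost with a pseudocount of 4, quantile normalization or a common median, Efnb3 with the trended prior, and Sema3c, Efna3 and Epha5 with the mean of probe sets. The stricter filter did not test Robo4, Unc5d and Efnb3. Between the combinations 4 members were called with the trended prior, and 0 under the other alternatives, and for slopes 0 under all of them.

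Over arrays left out, the called differences ran from 2.04 to 2.21 for Ntn1, 1.61 to 2.02 for Robo4, 0.94 to 1.40 for Unc5d and 0.60 to 1.09 for Plxna2. The day 7 difference of Sema5b was 0.39 with the mean of its probe sets and ran from -1.14 to 0.19 over arrays left out. Slope differences over arrays left out ran from -0.28 to 2.34 for Plxnb3, -3.45 to 1.47 for Sema6b, -3.16 to 1.41 for Sema6c and -4.60 to 2.98 for Sema5b. The causes of the sign changes were not tested. With 1 array per combination and day, 2 residual degrees of freedom and intensities near the filter for Robo4, Efnb3, Sema6c and Sema5b, the data limit what these differences can show.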
